A study of Homo sapiens with 8 samples.

Results

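SRF, its MRTF coactivators and the genes of the actin cytoskeleton were examined in HCT116, an established line of human colorectal carcinoma cells. A list of 38 genes was drawn up by symbol: the transcription factors, the actins, and the proteins that bind, cross-link, pull on, anchor or dismantle actin filaments. Of the 38, 32 had a probe set that the array annotation assigns to that gene alone, out of 18417 genes measured in that way. The only listed probe set of MRTFA also carries RBM15, and no probe set was listed for TPM3, FLNA, FLNC, FHL1 or WDR1 in the annotation used here, alone or shared, so these 6 genes have no gene value below.

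The arrays fall into 4 groups of 2. shCDK8 cells expressed a short hairpin RNA against CDK8, the kinase of the Mediator kinase module, and shControl cells a control hairpin. Cells of both lines were deprived of serum for 40 h and then either given medium with 10% fetal bovine serum for 30 min or left without serum. The groups are thus shCDK8 after serum, shCDK8 starved, shControl after serum and shControl starved, and all 4 passed through the same starvation. Each line carries a single hairpin, and the labels say neither whether a line is a clone nor whether duplicates were separate cultures, so the line differences hold everything in which the lines differ and the p-values may measure technical spread alone.

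Array medians over the 18417 genes lay between 7.07 and 7.11 on the log2 scale, and duplicates correlated with r of 0.997 to 0.998 across genes. The probe set shared by CDK8 and ADRA1B read 7.04 and 7.06 after serum and 7.09 and 6.99 in starved shCDK8 cells, against 9.22 and 9.19 after serum and 9.23 and 9.20 in starved shControl cells. It was 4.49-fold lower in shCDK8 cells on average over both times (log2 -2.17 ± 0.05 SE, limma adjusted p = 1.84e-05 among the probe sets of no or several genes). All 8 epithelial markers on the list (EPCAM, CDH1, CLDN3, CLDN4, CLDN7, KRT8, KRT18 and KRT19) lay above the median gene in mean level, as did 0 of 6 smooth muscle, 1 of 10 fibroblast and 0 of 7 blood and endothelial markers. Of the smooth muscle markers, DES (6.84 to 7.16) and SYNM lay close to that median of 7.09. SYNM lay above it on every shCDK8 array (7.21 to 7.45) and below it on every shControl array (6.70 to 6.92). With 2 arrays a group, precision is limited by their number. Levels are log2 values of a probe set. They are not calibrated between probe sets, so a place above or below the median gene is only a rough guide to brightness.

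SRF is a transcription factor that binds DNA at a motif called the CArG box. It works with 2 kinds of partner. Ternary complex factors such as ELK1 are switched on by the MAP kinase cascade and drive the fast, transient genes such as FOS. The MRTF coactivators bind monomeric actin through their own actin-binding motifs, are released when filaments assemble, enter the nucleus and drive genes of the cytoskeleton itself, so that actin and its binding proteins are both the signal and the target. Serum is the classical stimulus of both arms, and the SRF gene is itself a target of SRF.

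The sequences below are shown because they hold the motif by which SRF recognises its targets. RefSeq promoter windows of assembly GRCh38.p14, from 250 bases before to 50 bases after an annotated start, were searched for an exact CArG box, whose pattern reads the same on both strands. Of the 32 measured genes 28 had at least 1 window, and 8 of these 28 held a box: SRF, ACTG1, CNN2, TPM4, ACTN1, LPP, FHL2 and TGFB1I1. ACTB, MYL9, TAGLN and VIL1 had no window and were not searched. Of 27305 genes with a window, 1.60% held a box. Counted by window, a box lay in 10 of the 60 windows of measured members and in 1.29% of all 35116 windows. The list was drawn up partly from known SRF biology, so its share is a description of the list. Each stretch runs 5′ to 3′ on the strand of the gene, with the box in capitals.
SRF (chr6:43171214-43171293, plus strand): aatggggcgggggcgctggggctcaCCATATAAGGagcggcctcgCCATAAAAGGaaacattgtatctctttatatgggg
ACTG1 (chr17:81512859-81512918, minus strand): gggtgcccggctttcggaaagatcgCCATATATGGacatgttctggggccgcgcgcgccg
CNN2 (chr19:1026494-1026553, plus strand): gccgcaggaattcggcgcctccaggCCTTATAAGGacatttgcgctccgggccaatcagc
TPM4 (chr19:16067340-16067399, plus strand): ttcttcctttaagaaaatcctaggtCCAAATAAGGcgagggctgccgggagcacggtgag
ACTN1 (chr14:68977703-68977762, minus strand): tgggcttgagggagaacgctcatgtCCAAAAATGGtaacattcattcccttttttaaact
LPP (chr3:188212504-188212563, plus strand): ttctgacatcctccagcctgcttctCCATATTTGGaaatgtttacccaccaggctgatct
FHL2 (chr2:105438580-105438639, minus strand): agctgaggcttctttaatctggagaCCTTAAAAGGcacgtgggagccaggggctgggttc
FHL2 (chr2:105399076-105399135, minus strand): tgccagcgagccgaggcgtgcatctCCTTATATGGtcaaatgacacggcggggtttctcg
TGFB1I1 (chr16:31473129-31473188, plus strand): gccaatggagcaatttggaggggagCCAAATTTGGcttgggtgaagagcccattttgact
SRF held 2 boxes, which begin 30 and 10 bases before its start. The other boxes began between 51 bases (TGFB1I1) and 183 bases (LPP) before a start, and FHL2 had a different box at each of 2 annotated starts. A match is a matter of letters in these windows and does not show that SRF was bound.

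**Figure D1:**
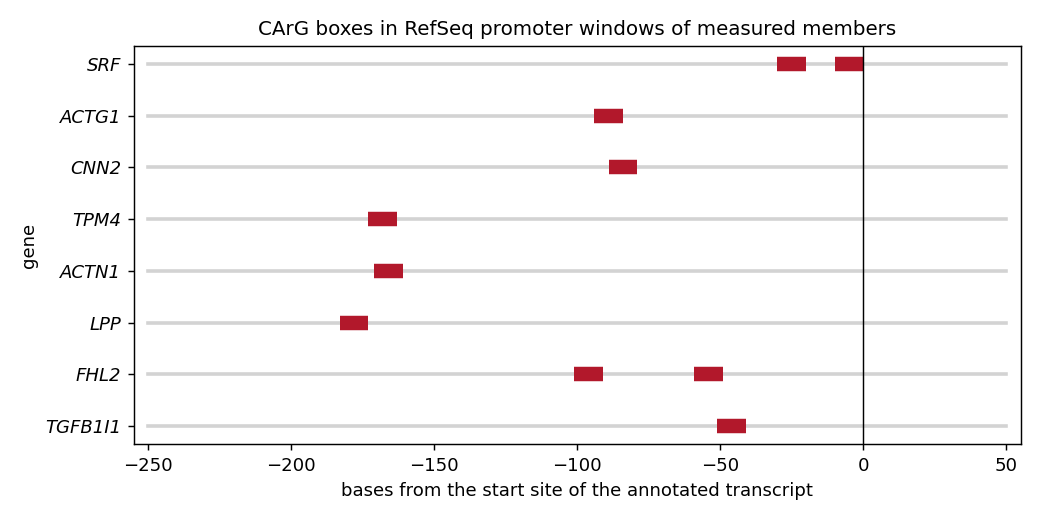
Positions of exact CArG boxes (red blocks, to scale) in the RefSeq promoter windows (grey lines) of the 8 measured genes that hold them, in bases from the annotated start at 0. The 2 boxes of SRF lie closest to the start, and the 2 blocks on the FHL2 line belong to different starts.

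The first question was which of these genes move within 30 min of serum. SRF was the 1 member of 32 that rose in each line, and no member fell. SRF read 9.20 and 9.35 after serum and 8.69 and 8.76 in starved shCDK8 cells. In shControl cells it read 9.41 and 9.58 after serum and 8.90 and 8.84 when starved. Serum-treated and starved arrays did not overlap in either line, which held in a shared direction for 13.9% of all 18417 genes. The rise was 1.46-fold in shCDK8 cells (log2 0.55 ± 0.08 SE, adjusted p = 0.0314), 1.54-fold in shControl cells (0.62 ± 0.08, adjusted p = 0.00960) and 0.59 ± 0.06 on the log2 scale on average (adjusted p = 0.00106), all in limma's moderated test with Benjamini-Hochberg adjustment over 18417 genes.

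Over all genes, 0.250% rose and 0.00543% fell in shCDK8 cells, 0.424% rose and 0.0380% fell in shControl cells, and 0.684% rose and 0.0760% fell on average over the lines. At an unadjusted p below 0.05 the average gave 7 of 32 members up and 1 down, and 1117 of 18417 genes up and 1561 down. The averaged call of SRF held without any 1 of the 8 arrays. The call in shCDK8 cells ended without any 1 of 6 arrays: its starved array 1 (adjusted p = 0.291), its starved array 2 (0.176), its serum array 1 (0.0537), its serum array 2 (0.265) or either starved array of shControl (0.0636 each). The call in shControl cells ended without its starved array 1 (0.0630), its starved array 2 (0.114) or its serum array 2 (0.106). Of the cell type markers, the claudin CLDN4 (0.37 ± 0.05) and the collagen COL1A1 (0.34 ± 0.06, adjusted p = 0.0291) rose with serum on average. The mean of the fibroblast list, which holds COL1A1, stayed between 5.19 and 5.29 on every array, and its part in the rise of SRF was not tested.

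LPP, a LIM protein of focal adhesions related to zyxin, had the next largest serum change. It read 9.61 and 9.65 after serum and 9.12 and 9.33 in starved shCDK8 cells, a difference of 0.40 ± 0.09 (adjusted p = 0.236). In shControl cells it read 8.98 and 8.79 after serum and 8.62 and 8.76 when starved (0.20 ± 0.09, adjusted p = 0.564). The average of 0.30 ± 0.07 missed the threshold (adjusted p = 0.103). Its arrays did not overlap in either line, as for 13.9% of all genes. Where the variance prior followed intensity, LPP passed in shCDK8 cells (adjusted p = 0.0257) and on average (0.00871).

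The structural genes moved by small amounts over these 30 min. Their averaged serum differences ran from -0.16 for VIL1, the villin of epithelial microvilli, to 0.30 for LPP, with a median over the 32 genes of 0.07, against -0.01 over all 18417 genes. Of the 32, 26 had a positive average, and the share of positive averages over all genes was not counted. The median size of a serum difference, whatever its sign, was 0.07. It was 0.06 over all genes and 0.05 over the 9208 genes above the median level. TAGLN, which encodes transgelin, a calponin-related protein of smooth muscle, differed by 0.20 ± 0.05 (adjusted p = 0.180). The LIM protein genes FHL2 and ZYX differed by 0.13 ± 0.05 (adjusted p = 0.283) and 0.13 ± 0.04 (0.251).

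ACTB, cytoplasmic beta-actin, read 12.21 and 12.22 after serum and 12.10 and 12.11 in starved shCDK8 cells, against 12.02 and 12.04 after serum and 11.95 and 11.90 in starved shControl cells. Its 4 pairs of arrays thus stood in 4 separate steps, with the serum step of 0.11 ± 0.04 not past the threshold (adjusted p = 0.313). ACTG1, cytoplasmic gamma-actin, differed by 0.07 ± 0.04 (adjusted p = 0.518). MYH10, the heavy chain of non-muscle myosin IIB, differed by 0.11 ± 0.05 (adjusted p = 0.339).

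The 8 genes with a CArG box had a median serum difference of 0.07, with SRF the 1 that passed and 7 of 8 positive. The 20 genes with windows and no box had a median of 0.07 (from -0.09 to 0.13), with 17 positive. Among genes with a box, TGFB1I1 was the 1 with a negative average (-0.09 ± 0.06). Between the lines the 8 genes with a box had a median difference of 0.22, with 4 higher and 0 lower in shCDK8 cells, and the 20 without had a median of 0.11, with 8 higher and 5 lower. The gap between these sets was not tested, and over all genes 12.0% were higher and 11.3% lower.

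**Figure D2:**
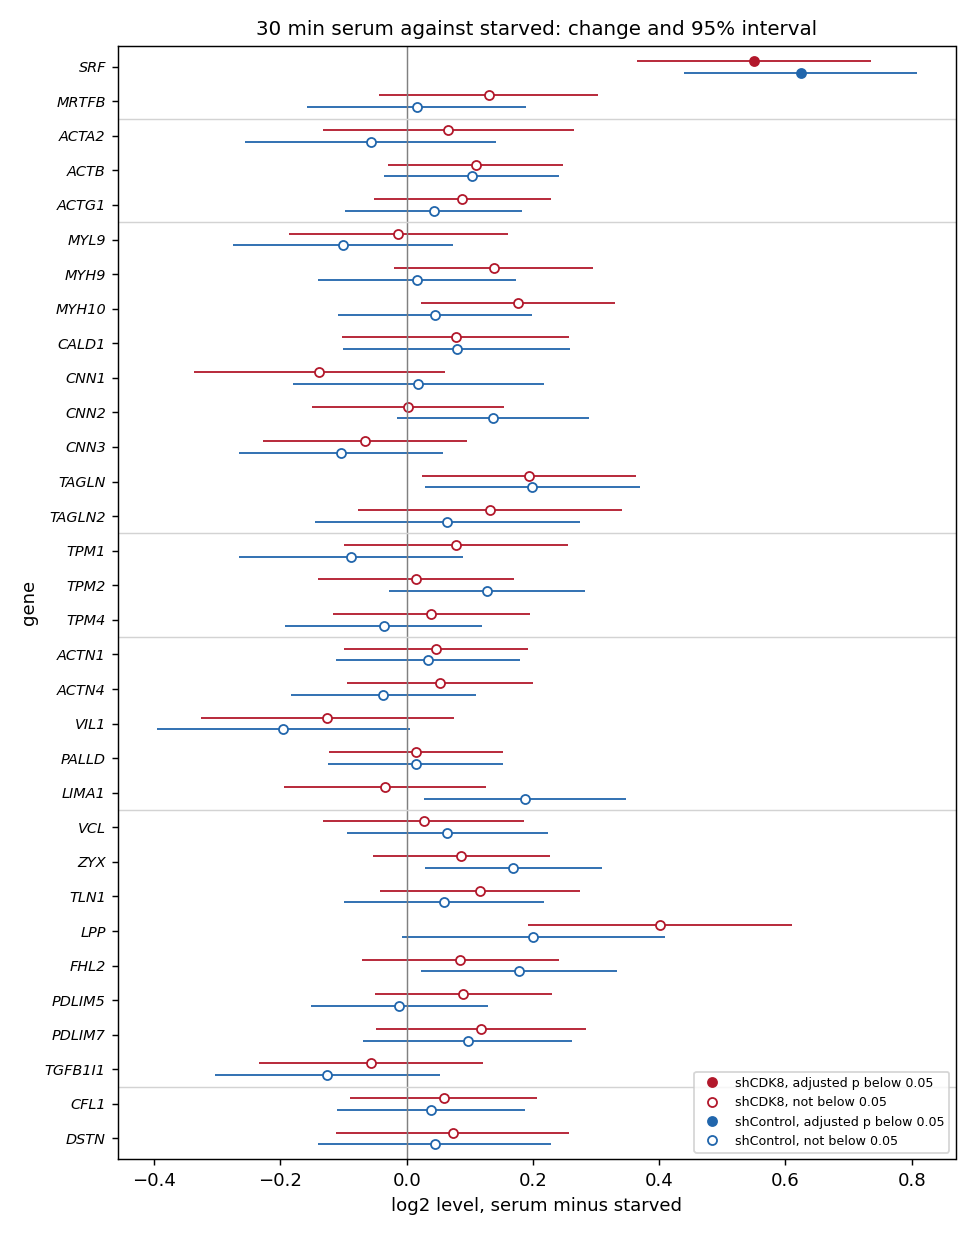
Serum minus starved log2 differences of the 32 genes in shCDK8 cells (red, upper point) and shControl cells (blue, lower point), with 95% intervals of the model and filled points for adjusted p below 0.05. SRF alone has filled points, at 0.55 and 0.62, and the remaining points lie between -0.20 and 0.40.

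The next question was whether the serum response of these genes differed between the lines. None of the 32 passed limma's test of the difference of responses, and none had an unadjusted p below 0.05. Over all genes 0% passed and 703 of 18417 had an unadjusted p below 0.05. For SRF the difference was -0.07 ± 0.12 (95% interval -0.34 to 0.19), an interval that spans 0 and reaches 0.34 below it. For LPP it was 0.20 ± 0.13 (-0.10 to 0.50) and for LIMA1 -0.22 ± 0.10 (-0.45 to 0.01, unadjusted p = 0.0548). LIMA1, whose product EPLIN bundles and stabilises filaments, differed with serum by -0.03 in shCDK8 and 0.19 in shControl cells. The median difference over the 32 genes was 0.03, against 0.01 over all genes.

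Between the lines more members differed. On average over both times 14 of the 32 genes were higher and 5 lower in shCDK8 cells, with 13 not past the threshold. Over all genes 12.0% were higher and 11.3% lower, and among the 9208 genes above the median level 17.8% and 17.4%. Of the members, 28 of which lie above that median, 43.8% were higher and 15.6% lower. At both times, in a shared direction, the lines did not overlap for 17 members upward and 6 downward, and for 32.2% of all genes. The members were chosen with earlier results of these data known, so these shares only describe the list. The median line difference of the 32 genes was 0.12, against -0.01 over all genes, and the median size of a difference, whatever its sign, was 0.23, against 0.08 over all genes and 0.11 over those above the median level. These are bulk samples, so more cells with a transcript and more transcript per cell cannot be told apart.

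**Figure D3:**
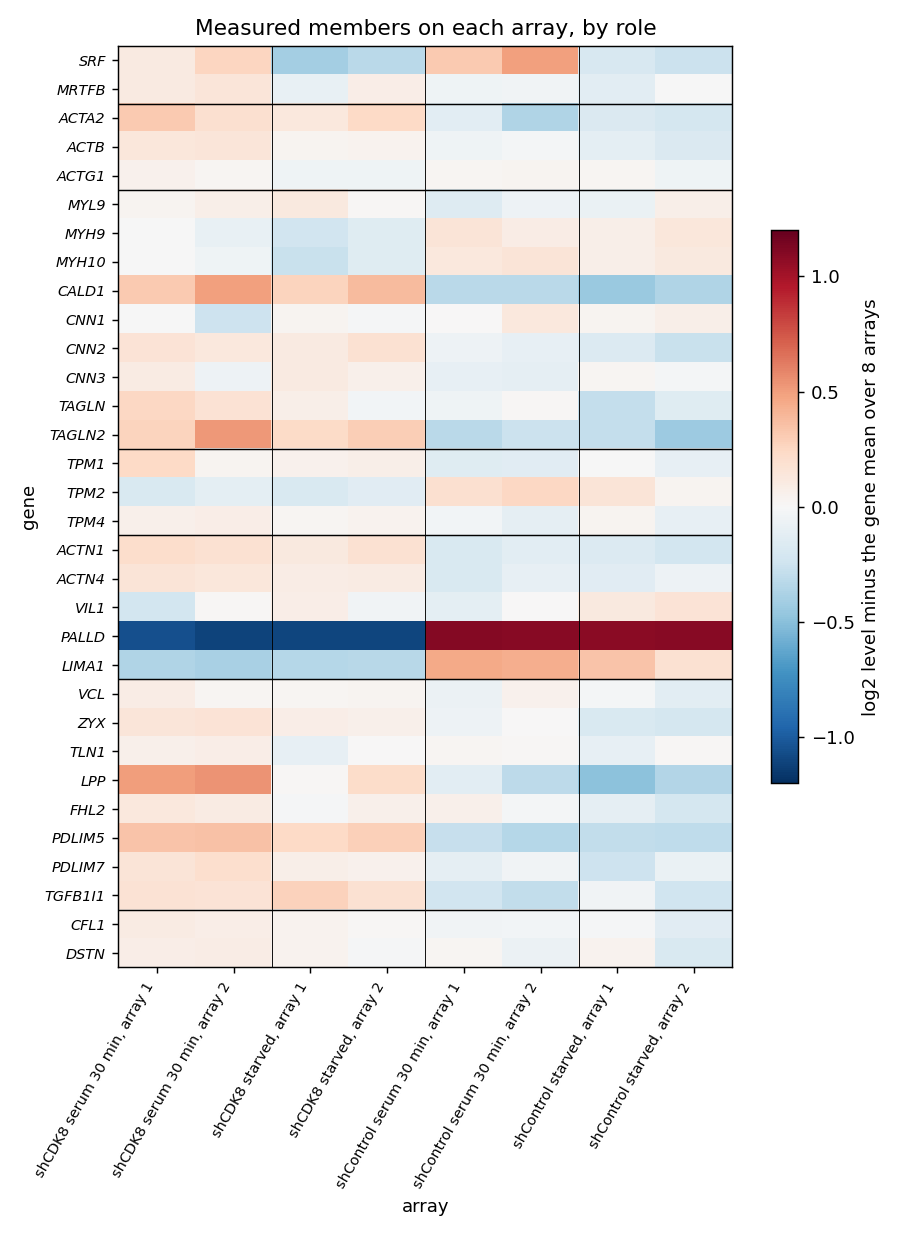
Log2 level of each of the 32 genes on each of the 8 arrays, minus the gene's mean over the arrays (red above, blue below), with shCDK8 arrays left of shControl arrays, serum left of starved within a line, and horizontal lines between roles. PALLD spans the widest range, LIMA1 is also low in shCDK8 cells, and CALD1, TAGLN2, LPP and PDLIM5 are high there.

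PALLD had the largest line difference of the 32 genes. Palladin is a scaffold of actin bundles and stress fibres that binds alpha-actinin. PALLD read 8.75 and 8.69 after serum and 8.70 and 8.70 in starved shCDK8 cells, against 10.90 and 10.90 after serum and 10.88 and 10.89 in starved shControl cells. Every shCDK8 array lay more than 2 log2 units below every shControl array, and arrays of the same line lay close together. The level was 4.54-fold lower in shCDK8 cells after serum (log2 -2.18 ± 0.06, adjusted p = 6.33e-08) and 4.54-fold lower in starved cells (-2.18 ± 0.06, adjusted p = 4.73e-08). Serum moved it by 0.02 in shCDK8 and 0.01 in shControl cells. It was the 1 member that passed with a minimum change of 1.5-fold, at each time and on average.

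LIMA1 also fell in shCDK8 cells. It read 9.27 and 9.24 after serum and 9.28 and 9.30 in starved shCDK8 cells, against 10.08 and 10.06 after serum and 9.97 and 9.80 in starved shControl cells, and every shCDK8 array lay below every shControl array. For 32.2% of all genes the lines did not overlap at both times in a shared direction. The level was 1.76-fold lower after serum (-0.82 ± 0.07, adjusted p = 6.66e-05) and 1.51-fold lower in starved cells (-0.60 ± 0.07, adjusted p = 0.000524).

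The alpha-actinins ran the other way. ACTN1 and ACTN4, the non-muscle forms that cross-link filaments, were both higher in shCDK8 cells on average. ACTN1 read 10.68 and 10.65 after serum and 10.59 and 10.65 in starved shCDK8 cells, against 10.28 and 10.34 after serum and 10.31 and 10.25 in starved shControl cells, a mean difference of 0.35 ± 0.05 (adjusted p = 0.000461). ACTN4 read 11.64 and 11.61 after serum and 11.57 and 11.57 in starved shCDK8 cells, against 11.30 and 11.38 after serum and 11.34 and 11.42 in starved shControl cells (0.24 ± 0.05, adjusted p = 0.00411). Neither gene's arrays overlapped between the lines, and 32.2% of all genes did not overlap at both times in a shared direction. VIL1 differed by -0.09 ± 0.06 (adjusted p = 0.393) and read between 5.38 and 5.77 on every array, below the median gene.

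**Figure D4:**
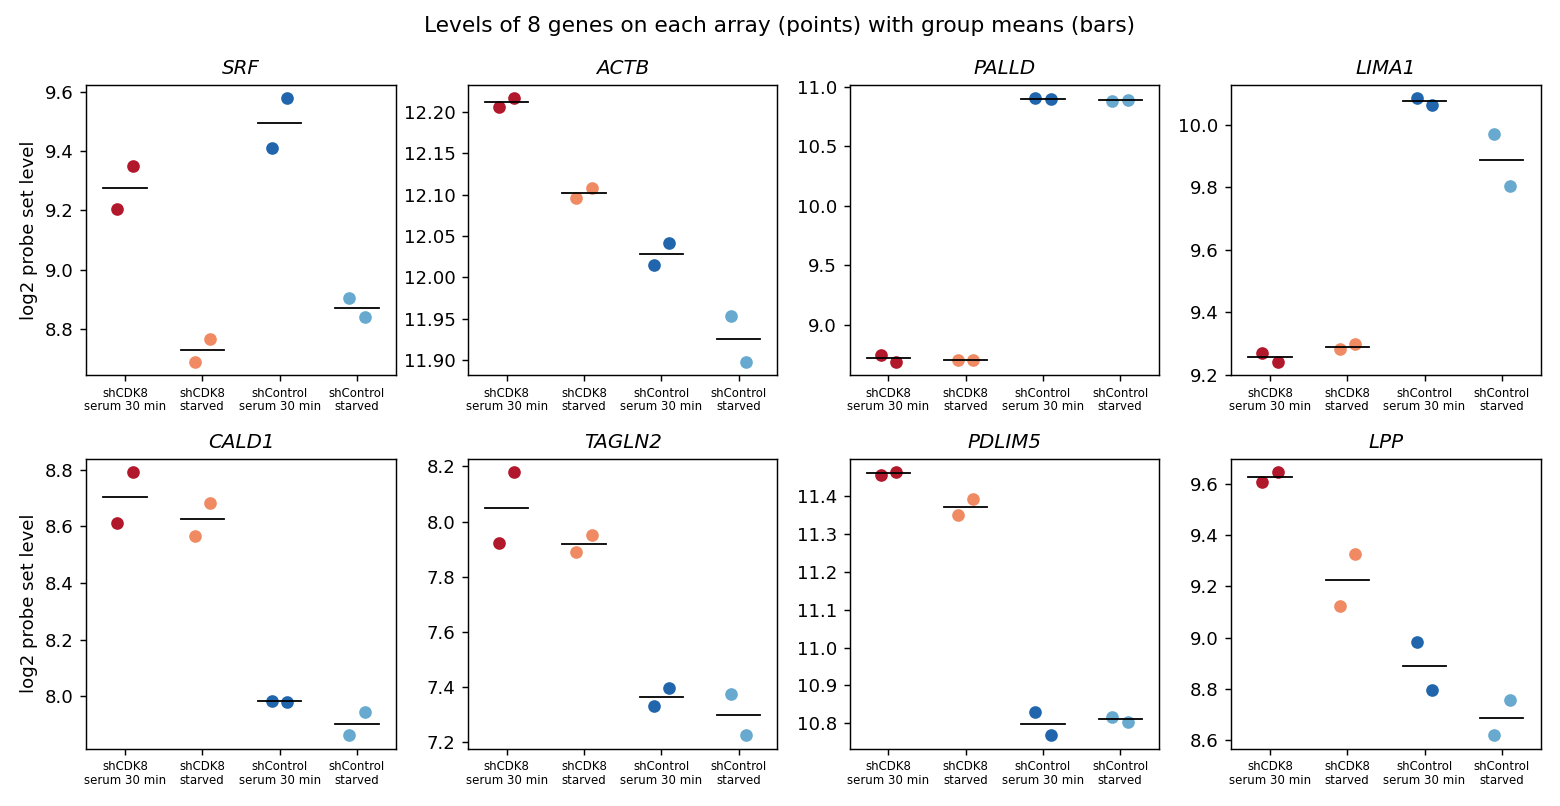
Log2 levels of 8 genes on each array (points, 2 per group) with group means (bars), on a separate axis for each gene. PALLD and LIMA1 are lower in shCDK8 cells, CALD1, TAGLN2, PDLIM5, LPP and ACTB are higher there, and SRF is higher after serum in both lines. The serum differences of LPP and ACTB did not pass the threshold.

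Among the 9 genes of the contractile apparatus, 4 were higher and 2 lower in shCDK8 cells on average. The shares over all genes were 12.0% and 11.3%. CALD1, the filament-binding caldesmon that restrains actomyosin, had the largest rise. It read 8.61 and 8.79 after serum and 8.57 and 8.68 in starved shCDK8 cells, against 7.98 and 7.98 after serum and 7.86 and 7.95 in starved shControl cells. That is 1.65-fold higher after serum (0.72 ± 0.08, adjusted p = 0.000315) and 1.65-fold higher in starved cells (0.72 ± 0.08, adjusted p = 0.000325).

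TAGLN2, transgelin 2, read 7.92 and 8.18 after serum and 7.89 and 7.95 in starved shCDK8 cells, against 7.33 and 7.40 after serum and 7.37 and 7.22 in starved shControl cells. Its lines did not overlap, as at both times in a shared direction for 32.2% of all genes. The rise averaged 0.65 ± 0.07 (adjusted p = 7.88e-05). Its relative TAGLN rose by 0.23 ± 0.05 on average (adjusted p = 0.0106), reading 6.68 and 6.60 after serum and 6.50 and 6.40 when starved in shCDK8 cells, against 6.38 and 6.44 after serum and 6.14 and 6.28 when starved in shControl cells.

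The calponins, which bind actin and calmodulin, did not move as a family. CNN2 rose by 0.30 ± 0.05 on average (adjusted p = 0.00154), whereas CNN3 differed by 0.10 ± 0.05 (0.192) and CNN1, the smooth muscle calponin, by -0.12 ± 0.06 (0.234). CNN1 read between 5.45 and 5.83 on every array, below the median gene, where the table gives no detection call.

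The myosin II heavy chains fell. MYH9, of non-muscle myosin IIA, read 10.12 and 10.03 after serum and 9.89 and 9.98 in starved shCDK8 cells, against 10.28 and 10.21 after serum and 10.19 and 10.26 in starved shControl cells. Its average difference was -0.23 ± 0.05 (adjusted p = 0.00797), and that of MYH10 was -0.24 ± 0.05 (adjusted p = 0.00593). MYL9, a regulatory light chain of the same motor, differed by 0.12 ± 0.05 (adjusted p = 0.166).

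Tropomyosins, coiled dimers that lie along the filament, went in different directions. TPM2 read 10.37 and 10.43 after serum and 10.37 and 10.41 in starved shCDK8 cells, against 10.74 and 10.80 after serum and 10.70 and 10.59 in starved shControl cells, and fell by 0.31 ± 0.05 on average (adjusted p = 0.00125). TPM1 rose by 0.20 ± 0.06 (adjusted p = 0.0298), a call that ended without any 1 of 6 arrays: serum array 1 of shCDK8 (adjusted p = 0.0920), its starved array 1 (0.0672) or 2 (0.0833), serum array 1 (0.0811) or 2 (0.0784) of shControl or its starved array 2 (0.0942). TPM1 read between 6.55 and 6.93 on every array, below the median gene and without a detection call. TPM4 differed by 0.10 ± 0.05 (adjusted p = 0.180). Its dimmer second probe set differed by -0.04 ± 0.05 (adjusted p = 0.705 in a fit of all probe sets), so the signs of its probe sets disagreed and neither passed.

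Of the 3 actins, 2 were higher in shCDK8 cells on average, where 12.0% of all genes were. ACTA2, smooth muscle alpha-actin, read 8.01 and 7.89 after serum and 7.83 and 7.94 in starved shCDK8 cells, against 7.57 and 7.34 after serum and 7.53 and 7.49 in starved shControl cells. All shCDK8 arrays lay above all shControl arrays, and the average rise was 1.35-fold (0.43 ± 0.06, adjusted p = 0.000763). For 32.2% of all genes the lines did not overlap at both times in a shared direction. ACTB rose by 0.18 ± 0.04 (adjusted p = 0.0143), a call that ended without serum array 1 of shControl (adjusted p = 0.0542). ACTG1 differed by -0.02 ± 0.04 (adjusted p = 0.851, 95% interval -0.12 to 0.08). Near-identical actin transcripts could share probe signal, and the separate values of the 3 genes are uncertain to that extent.

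Of the markers of smooth muscle that are no members, SYNM, an intermediate filament protein, rose by 0.50 ± 0.07 (adjusted p = 0.000496), reading 7.45 and 7.21 after serum and 7.35 and 7.36 in starved shCDK8 cells, against 6.88 and 6.87 after serum and 6.70 and 6.92 in starved shControl cells. The 5 others on that list (MYH11, DES, LMOD1, CASQ2 and SYNPO2) did not pass, and the mean of the list ran from 5.81 to 6.03 over the arrays. The part of these markers in the values of ACTA2, TAGLN and CALD1 was not tested.

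Of the 8 adhesion and LIM domain genes, 5 were higher in shCDK8 cells on average and none was lower, where 12.0% and 11.3% of all genes were. At an unadjusted p below 0.05 in limma these counts were 6 and 0, where 3003 of 18417 genes were higher and 3108 lower. PDLIM5 and PDLIM7 encode PDZ and LIM domain proteins that sit on alpha-actinin and stress fibres. PDLIM5 read 11.46 and 11.46 after serum and 11.35 and 11.39 in starved shCDK8 cells, against 10.83 and 10.77 after serum and 10.82 and 10.80 in starved shControl cells, 1.58-fold higher after serum (0.66 ± 0.06, adjusted p = 0.000113) and 1.47-fold higher in starved cells (0.56 ± 0.06, adjusted p = 0.000345). PDLIM7 rose by 0.24 ± 0.05 on average (adjusted p = 0.00832).

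LPP was 1.67-fold higher after serum (0.74 ± 0.09, adjusted p = 0.000692) and 1.45-fold higher in starved shCDK8 cells (0.54 ± 0.09, adjusted p = 0.00430). Each shCDK8 array lay above every shControl array, and 32.2% of all genes did not overlap at both times in a shared direction. TGFB1I1, the paxillin relative Hic-5, read 7.91 and 7.90 after serum and 8.01 and 7.91 in starved shCDK8 cells, against 7.50 and 7.44 after serum and 7.69 and 7.50 in starved shControl cells (0.40 ± 0.06 on average, adjusted p = 0.000617). ZYX, zyxin, rose by 0.22 ± 0.04 (adjusted p = 0.00485).

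The remaining adhesion genes did not pass. FHL2, a LIM-only coregulator, differed by 0.14 ± 0.05 (adjusted p = 0.0716). VCL and TLN1, vinculin and talin, which couple integrins to filaments, differed by 0.08 ± 0.05 (0.285) and 0.03 ± 0.05 (0.785). CFL1 and DSTN, cofilin and destrin, which sever and depolymerise filaments, differed by 0.12 ± 0.05 (0.116) and 0.10 ± 0.06 (0.299).

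Neither transcription factor with its own probe set passed between the lines. SRF was lower in shCDK8 cells by 0.18 ± 0.06 on average, just outside the threshold (adjusted p = 0.0501). The shCDK8 arrays of SRF lay below its shControl arrays at both times, and 32.2% of all genes did not overlap in a shared direction. Its separate differences were -0.22 ± 0.08 after serum (adjusted p = 0.121) and -0.14 ± 0.08 in starved cells (0.324), and it passed on average in 8 of 16 other settings, among them without serum array 2 of shCDK8 (0.0407) or serum array 1 of shControl (0.0362). MRTFB, an MRTF coactivator, differed by 0.12 ± 0.05 (adjusted p = 0.172). The probe set shared by MRTFA and RBM15 read between 7.88 and 7.97 on every array and differed by 0.06 ± 0.05 (adjusted p = 0.743).

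**Figure D5:**
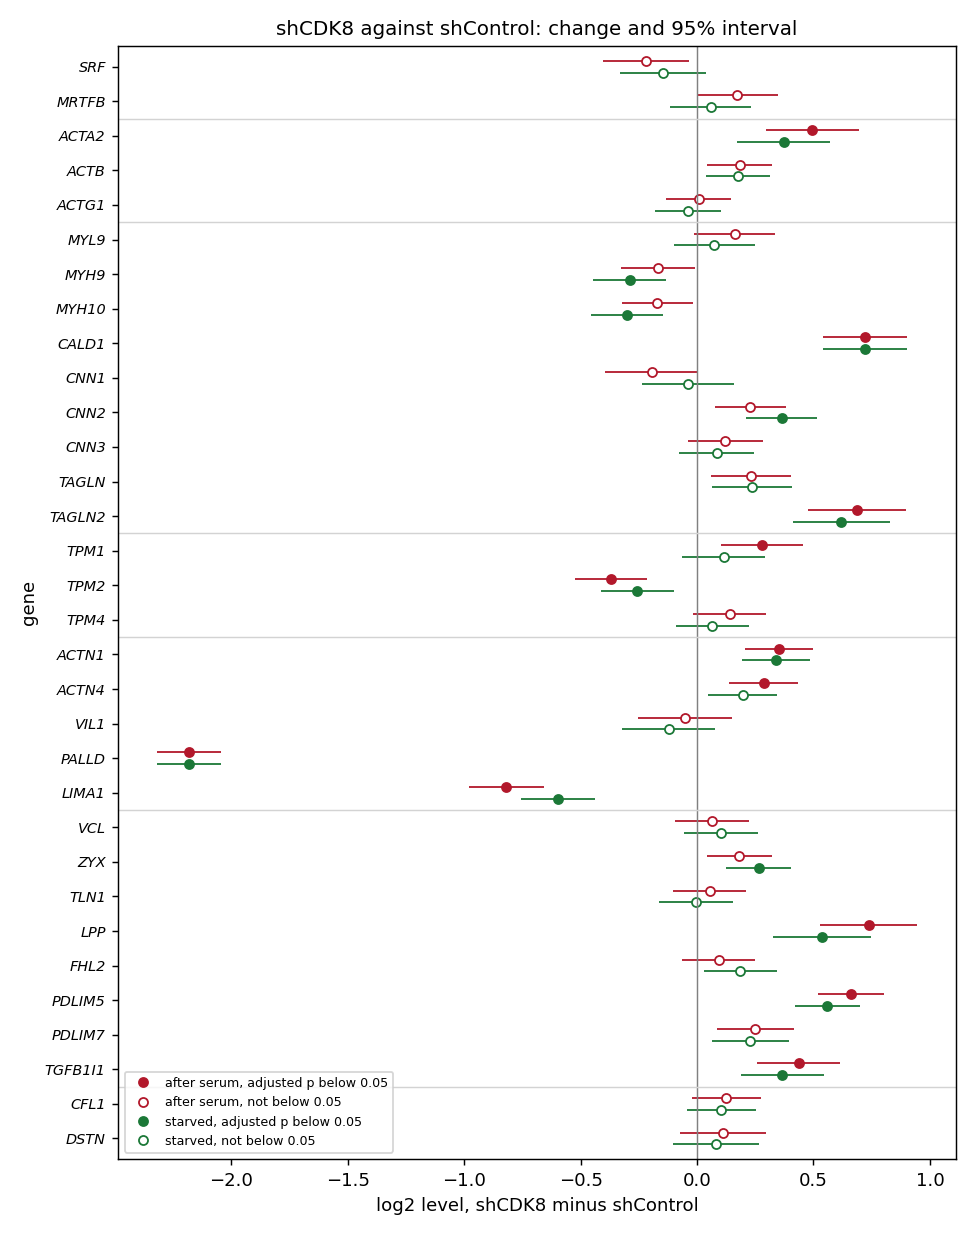
shCDK8 minus shControl log2 differences of the 32 genes after serum (red, upper point) and in starved cells (green, lower point), with 95% intervals of the model and filled points for adjusted p below 0.05. PALLD lies at -2.18 at both times, and 7 genes have filled points to the right of 0 at both.

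Tested within each time, 9 members were higher and 3 lower after serum, where 7.70% and 6.54% of all genes were, and 9 were higher and 5 lower in starved cells, where 7.13% and 6.28% were. ACTA2, ACTN1, CALD1, LPP, PDLIM5, TAGLN2 and TGFB1I1 passed upward at both times and LIMA1, PALLD and TPM2 downward. CNN2, ZYX, MYH9 and MYH10 passed in starved cells alone and ACTN4 and TPM1 after serum alone, and for none of these 6 did the difference between the times pass (adjusted p of 0.9998 each).

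Single arrays decided several calls made within 1 time. In starved cells the total of 14 was 8 without array 1 or array 2 of shCDK8 and 9 without array 1 or array 2 of shControl. Calls of ACTA2, MYH9 and ZYX ended without any 1 of these 4 arrays (adjusted p up to 0.136, 0.139 and 0.104). MYH10 lost its call without starved array 1 of shCDK8 (0.122) or array 1 (0.0562) or 2 (0.0891) of shControl, and TGFB1I1 without starved array 1 of shCDK8 (0.0958) or 2 of shControl (0.0883). ACTN1 lost it without starved array 2 of shCDK8 (0.0582) or of shControl (0.0504), CNN2 without starved array 2 of shCDK8 (0.0539), and TPM2 without any 1 of 7 arrays, all but starved array 2 of shControl (up to 0.183). After serum ACTN4 lost its call without any 1 of the 4 serum arrays (up to 0.126), TPM1 without each array other than serum array 2 of shCDK8 (up to 0.245), ACTN1 without serum array 1 of shControl (0.0545) and TPM2 without its serum array 2 (0.0559). The call of TPM2 in starved cells also ended with the replicate number as a block (adjusted p = 0.0546), in a fit of the starved arrays alone (0.0803) and with all probe sets in 1 fit (0.0969). The call of TPM1 after serum also ended with an intensity trend (0.0526), with arrays centred on their medians (0.0552), in a fit of the serum arrays alone (0.0820) and with all probe sets in 1 fit (0.118).

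The surrounding pathway was described with lists of genes that are not members. For comparison, 0.684% of all genes rose with serum on average. Between the lines 12.0% were higher and 11.3% lower in shCDK8 cells. Of 9 measured early SRF targets of the ternary complex factor kind, all 9 rose with serum on average, by 0.50 to 3.52, led by FOS (3.52 ± 0.07), FOSB (2.98 ± 0.08), the nuclear receptor NR4A1 (2.74 ± 0.08) and the phosphatase DUSP1 (2.69 ± 0.07). All 9 were also lower in shCDK8 cells on average, with a median of -0.51, led by FOS (-1.03 ± 0.07, adjusted p = 6.52e-06), EGR1 (-1.01 ± 0.07), JUNB (-0.98 ± 0.07) and FOSB (-0.60 ± 0.08). After serum 9 of 9 passed downward (from -1.06 to -0.50), where 6.54% of all genes did. In starved cells 5 of 9 did (from -1.25 to 0.04), where 6.28% of all genes did. None passed limma's test of the difference of responses. At an unadjusted p below 0.05 in that test 2 were positive and 3 negative, against 703 of 18417 genes in either direction. The median line difference of the 32 members was 0.12. By role it ran from -0.09 (cross-linkers and bundlers) to 0.23 (the 8 adhesion and LIM genes). The gap between the early targets and the members was not tested.

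Of 6 measured genes listed as targets of SRF and MRTF (CCN1, CCN2, THBS1, ANKRD1, TGFB1 and INHBA), 2 were higher and 1 lower in shCDK8 cells. The genes that passed were THBS1, thrombospondin 1 (0.83 ± 0.10, adjusted p = 0.000263), CCN2 (0.46 ± 0.06, 0.000384) and TGFB1 (-0.78 ± 0.05, 5.40e-06). For CCN2 the line difference was 0.90 ± 0.08 after serum (adjusted p = 0.000109) and 0.03 ± 0.08 in starved cells (0.886). With serum 3 of the 6 rose on average: CCN1 (3.61 ± 0.07), THBS1 (2.06 ± 0.10) and CCN2 (0.61 ± 0.06). The serum change of CCN2 was 1.05 ± 0.08 in shCDK8 cells (adjusted p = 0.000396) and 0.17 ± 0.08 in shControl cells (0.589), and the difference of responses, 0.87 ± 0.12, did not pass over all genes (unadjusted p = 3.51e-05, adjusted p = 0.203). Of 10 partners and regulators of SRF, 2 were higher and 4 lower between the lines, where 12.0% and 11.3% of all genes were. MICAL2, an enzyme that oxidises actin, rose by 0.46 ± 0.06 (adjusted p = 0.000267) and the ternary complex factor ELK3 by 0.25 ± 0.05 (0.00578). The listed ternary complex factors ELK1 and ELK4 went the other way. ELK1 read 8.08 and 8.17 after serum and 8.03 and 8.06 when starved in shCDK8 cells. In shControl cells ELK1 read 8.20 and 8.26 after serum and 8.27 and 8.25 when starved. ELK4 read 7.62 and 7.57 after serum and 7.56 and 7.56 when starved in shCDK8 cells. In shControl cells ELK4 read 7.85 and 7.84 after serum and 7.75 and 7.76 when starved. PHACTR4, which binds actin monomers, and the formin FHOD1 fell by 0.25 ± 0.06 (0.00854) and 0.28 ± 0.07 (0.0173). The call of FHOD1 ended without serum array 2 (0.0619) or starved array 2 (0.0600) of shCDK8, or without serum array 2 (0.0615) or starved array 1 (0.0635) of shControl.

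Of 20 genes of filament assembly, 3 were higher and 1 lower in shCDK8 cells, where 12.0% and 11.3% of all genes were. VASP, which extends filaments, rose by 0.41 ± 0.05 (adjusted p = 0.000492), the filament-binding COTL1 by 0.32 ± 0.05 (0.00152) and the thymosin TMSB10 by 0.22 ± 0.04 (0.00583). ARPC1B, a subunit of the ARP2/3 nucleator, fell by 0.25 ± 0.05 (0.00315). Of 14 other focal adhesion genes 6 were higher and 1 lower, led by FERMT1, the integrin activator kindlin-1 (1.00 ± 0.05, adjusted p = 7.13e-07), the tensin TNS3 (0.62 ± 0.07) and the parvin PARVA (0.61 ± 0.05). TES, testin, fell by 0.51 ± 0.05 (adjusted p = 3.94e-05). No gene of the assembly or focal adhesion lists passed with serum in limma, and none had an unadjusted p below 0.05 on average.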

How the data were processed

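Total RNA of 8 HCT116 samples was measured on 1 array each. Per the labels' protocols, cRNA labelled with biotin was prepared as Affymetrix prescribes. The authors deposited log2 probe set summaries made with RMA, per the submitters' processing notes. The RMA version is not given in the sources used here. Depth has no counterpart on arrays, where the number of arrays limits precision.

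The table held 33297 probe sets. Of the 21214 in the array annotation, 19460 carried 1 gene and 1754 several. The brightest probe set of each gene was used, which gave 18417 genes. limma 3.58.1 (R 4.3.3) fitted the means of the 4 groups in 1 linear model with no filter, two-sided P-values and Benjamini-Hochberg adjustment within each contrast, at a threshold of 0.05. It was tested on simulated data for the average line contrast. There it recovered 44% of shifts of 0.25 log2 units, 84% of shifts of 0.5 and 100% of shifts of 1. A gene that did not pass may thus still differ by a small amount. Probe sets of no or several genes were fitted apart. A gene is said to rise or fall only where it passed. Errors are standard errors of the model unless stated.

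All members are named. Of each other list, up to 4 genes with the largest change past the threshold are named. ELK1 and ELK4 are named beside ELK3 as the other ternary complex factors listed. One further list of signalling genes is not reported here. The members and lists were chosen with earlier results of these data known. Alternatives were an intensity trend, the compared arrays alone, a replicate block, a filter on dim genes, cyclic loess, median centring, averaging the probe sets of each gene, all probe sets in 1 fit, a minimum of 1.5-fold and leaving out each array. Promoter sequences are RefSeq's. Figures were drawn with matplotlib 3.10.9.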

Additional observations from a re-analysis of the deposited data

How the results depend on the processing

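Counts of members called, followed by counts of all genes called, changed by more than 1.5 times under the alternatives given here. With a minimum change of 1.5-fold, 1 member and 155 genes passed between the lines in starved cells (14 and 2470 without it), 1 and 176 after serum (12 and 2624), and 1 and 228 on average (19 and 4297). Serum then gave 0 members and 16 genes in shCDK8 cells (1 and 47), 0 and 21 in shControl cells (1 and 85), and 0 and 20 on average (1 and 140). All probe sets in 1 fit gave 8 members between the starved lines, 0 members and 30 genes with serum in shCDK8 cells, and 0 and 47 in shControl cells. An intensity trend gave 2 members and 100 genes with serum in shCDK8 cells, 128 genes in shControl cells, 2 members and 236 genes on average, and 7 genes in the difference of responses. The shCDK8 arrays alone gave 0 members and 28 genes with serum. In each serum count of 0 members SRF was the gene lost, and in each count of 2 LPP was the gene added.

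Leaving out single arrays gave 8 to 13 members and 1468 to 2315 genes between the starved lines, 9 to 12 and 1452 to 2564 after serum, and 18 to 20 and 3422 to 3735 on average. For serum it gave 0 to 1 members and 23 to 51 genes in shCDK8 cells, 0 to 1 and 33 to 85 in shControl cells, 1 in every case and 89 to 135 genes on average, and 0 members and 0 to 1 genes for the difference of responses. No called member changed sign under any alternative run. Of 224 member results, 13 uncalled ones changed sign with cyclic loess, 5 with arrays centred on their medians and up to 18 without 1 array. Replicate numbers did not pair the arrays: correlations of same-numbered deviations ran from -0.19 to 0.13 over the 6 pairs of groups. The replicate block gave 13 members in starved cells, where TPM2 lost its call (adjusted p = 0.0546), 13 after serum and 20 on average, and 1 in each serum comparison. Beside the calls of TPM1, TPM2 and SRF already named, all probe sets in 1 fit ended those of ACTA2, MYH9, MYH10, ZYX and TGFB1I1 in starved cells, ACTN4 after serum and TPM1 on average, and the starved arrays alone ended that of ZYX. Alternatives for probe sets of FLNA and FHL1 were not run, as none was listed. The cause of these changes was not tested beyond the stricter or wider criterion itself. Values near the low end of the scale (CNN1, VIL1) carry no detection call, which limits what their small differences can show. TAGLN and TPM1, called on average between the lines, also lay below the median gene without a detection call.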

Other observations

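The cortex and microvilli of epithelial cells also use actin. Of 10 measured genes of that list, 1 was higher and 2 lower in shCDK8 cells on average. The shares over all genes were 12.0% and 11.3%. MSN, moesin, which ties filaments to the membrane, rose by 0.45 ± 0.05 (adjusted p = 0.000169), reading 10.74 and 10.74 after serum and 10.62 and 10.75 in starved shCDK8 cells, against 10.20 and 10.30 after serum and 10.25 and 10.31 in starved shControl cells. EPS8, which caps and bundles filaments, fell by 0.53 ± 0.05 (adjusted p = 3.15e-05), and ANLN, the anillin of the cytokinetic ring, by 0.52 ± 0.05 (4.94e-05). Of the 8 epithelial markers, 3 were higher and 2 lower, with the keratins KRT18 (0.56 ± 0.05) and KRT8 (0.43 ± 0.05) up and CLDN4 (-0.37 ± 0.05) and KRT19 (-0.32 ± 0.05) down. EPCAM, an epithelial adhesion molecule, read 11.77 and 11.68 after serum and 11.77 and 11.75 in starved shCDK8 cells, against 11.83 and 11.75 after serum and 11.82 and 11.72 in starved shControl cells, and the arrays of the 2 lines overlapped.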
